A study of Mus musculus with 4 samples.

Results

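The comparison described here sets the array of splenic regulatory T cells (Tregs) from deltaDC mice against the array of splenic Tregs from wild-type (WT) mice, gene by gene across the whole design. It uses 2 of the 4 arrays of the study, and the 2 thymic arrays serve only to show where the splenic difference stands apart. A gene was taken as measured where both splenic arrays had it well above background, which held for 12531 of 22317 named genes. All mice were male C57BL/6. Cells of 3 mice were pooled per genotype, so that each group is 1 array and has no replicate. The name deltaDC, commonly given to mice that lack dendritic cells, is not explained in the labels, which also give no allele, driver or age. Splenic CD4 T cells were first enriched by negative selection, and DAPI-negative, CD4-positive, CD25-positive cells were then sorted, without a sort on Foxp3. From 10 ng of total RNA with integrity numbers between 8.4 and 9.9, cRNA was labelled with Cy3 and hybridised to a one-colour Agilent design of 60-base probes. The comparison asks, as far as the labels state it, which genes separate the Tregs of the genotypes.

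Tregs are CD4 T cells that hold other immune cells in check and depend on the transcription factor Foxp3. They carry the interleukin-2 receptor chain CD25, which activated T cells and some innate lymphocytes also carry. Dendritic cells present antigen to T cells and supply signals that keep Tregs and other lymphocytes in balance, so that their absence is known to be followed by myeloid expansion and lymphocyte activation in several mouse models.

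The genes that define the labelled cell type were present on both splenic arrays. Foxp3 had signals of 10226 on WT and 10992 on deltaDC spleen, and all 5 Treg markers examined (Foxp3, Il2ra, Ctla4, Ikzf2 and Tnfrsf18) were above background on all 4 arrays, with sums of 71306 and 72485. These and the sums below are of signals before the scaling described below. Il2ra, which encodes CD25, had 25378 on WT and 15662 on deltaDC spleen, while Tnfrsf18 had 26837 and 35789. After scaling, Il2ra differed by -0.90, Tnfrsf18 by 0.21 and Foxp3 by -0.10. Genes of other cells were also present, and several of their lists had higher sums on the deltaDC spleen array. Of 6 neutrophil genes, 1 was above background on WT spleen and 6 on deltaDC spleen, with summed signals of 42.2 and 9885. The 6 NK cell genes summed to 966 and 5638, and 5 genes of gamma-delta T, NKT and innate lymphoid cells to 404 and 4402. Erythroid genes summed to 1779 and 5755, macrophage genes to 1621 and 2939, and B cell genes to 1768 and 1927. After scaling, the B cell genes Cd79a and Cd79b differed by -0.38 and -0.09. The 2 CD8 T cell genes summed to 335 and 315. Of 6 dendritic cell genes, 1 was above background on WT spleen and 4 on deltaDC spleen. Their sum was lower on deltaDC spleen (61446 on WT and 45732 on deltaDC), nearly all of it from Siglech (61409 and 45514). Itgax (94.6), Zbtb46 (91.5) and Flt3 (24.6) were above it on deltaDC spleen and not on WT spleen, where they had 5.72, 14.9 and 7.62, while Clec9a and Xcr1, and Pax5 of B cells, were not above background on any array. In pooled bulk RNA, more cells of a type and more RNA per cell cannot be told apart, and the part of such cells in the differences below was not tested.

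Most genes were close between the splenic arrays, and a minority stood higher on the deltaDC array by large factors. Values are log2 signals after each array's 75th percentile (340.2 on WT and 391 on deltaDC spleen) was subtracted, and differences are deltaDC minus WT. The median difference was -0.01, the SD over genes 0.64, and 54.1% of genes lay within 1.2-fold. A 2-fold difference was reached by 803 of 12531 genes on the higher side, where deltaDC exceeded WT (6.41% of those measured), and by 252 on the lower side (2.01%), 8.42% in all. At 4-fold the split was wider, with 249 genes higher and 17 lower. Between the thymic arrays the 2-fold counts were 121 (0.928%) and 88 (0.675%) of 13040 genes, 1.6% in all, with an SD of 0.32. With 1 array a genotype there is no test and no p-value. Genes past 2-fold are called higher or lower below. The error given beside a gene is that between repeated spots of a probe within an array, so it leaves out animals, sorting and labelling. On the log2 scale this spot SD had a median of 0.22 for signals under 50, 0.11 from 50 to 200, 0.07 from 200 to 1000, 0.05 from 1000 to 10000 and 0.04 above.

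The difference was unequal between dim and bright genes. Genes were classed by the geometric mean of their 2 signals. Of 990 genes under 50, 63 were higher and 69 lower. Of 2107 genes between 50 and 200, 335 were higher and 87 lower, 20.03% together, against 4.38% of the same class between the thymic arrays. The share fell to 10.0% of 3230 genes from 200 to 1000, to 2.94% of 4936 genes from 1000 to 10000 and to 2.60% of 1268 brighter genes. The SD of the difference was 0.93 in the class from 50 to 200 and 0.38 in the brightest, where thymus had 0.47 and 0.19. In the dimmest class the spleen SD of 0.66 was 1.31 times that of thymus, while in the other 4 classes it was 1.97 to 2.28 times as large. The median spot SE of a splenic difference was 0.32 in the dimmest class, 0.16 in the next and 0.06 in the brightest. Normexp background correction was run with an offset of 50, which by itself shrinks differences between dim signals. With it the shares of dim genes were 0.10% under 50 and 7.74% from 50 to 200. Normexp was not run without the offset, so correction and offset were not told apart. Of the 285 genes past 2-fold that were followed over the alternatives, 105 were no longer past it with normexp, and Klrc1, Cd163l1 and Gbp2b, described next, stood at 4.28, 3.79 and -2.69. Classing the genes by their thymic signals, which the splenic difference does not enter, gave 17.96%, 17.5%, 10.3%, 3.67% and 2.33% from the dimmest to the brightest class.

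**Figure D1:**
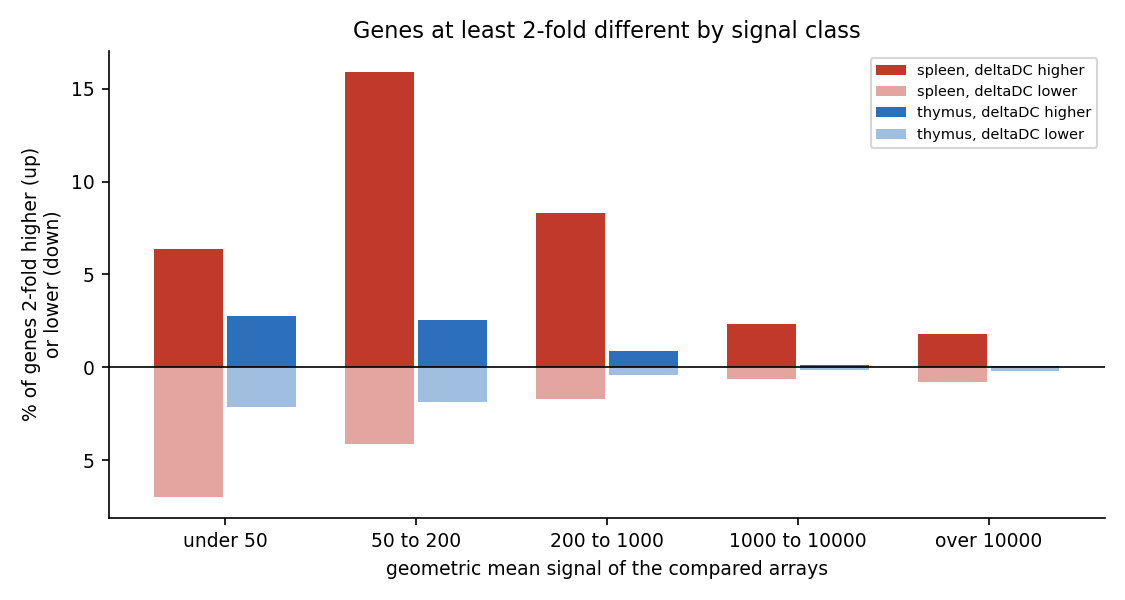
Bars give the percent of measured genes at least 2-fold higher (upward) or lower (downward) on the deltaDC array, by geometric mean signal of the compared arrays, in spleen (red) and thymus (blue). The tallest bar is the 15.9% of genes higher in spleen at signals of 50 to 200, and the splenic shares exceed the thymic ones in each class.

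The genes highest in each class included receptors and effector molecules of the immune system. Klrc1, which encodes the lectin-like receptor NKG2A, had a signal of 24.6 in WT and 1790 in deltaDC spleen, and of 31.6 and 54.3 in the thymic arrays of the same genotypes. It was high on a single array and differed in spleen by 5.98 (spot SE 0.23). Cd163l1, a scavenger receptor of gamma-delta T cells, went from 31.0 to 1484 in spleen and was bright on both thymic arrays, at 1378 and 985. Ifitm1, an interferon-induced membrane protein, stood at 54.95 and 3017 in spleen against 302 and 724 in thymus. Among genes of 1000 to 10000, the galectin gene Lgals3 had 351 on WT and 12996 on deltaDC spleen, with 972 and 1509 in thymus. The chemokine receptor gene Cxcr6 had 1408 and 41925 in spleen and 1462 and 2181 in thymus, and the inhibitory receptor gene Lilrb4a had 520.1 and 9771 in spleen. In the brightest class the calcium-binding proteins S100a6 and S100a4 differed by 3.49 and 3.41, and the histone gene H2ac4 by 2.40 (spot SE 0.07 each). Lilr4b (4.83), Camp (4.66) and Klrd1 (4.20) led the class from 50 to 200, and Samd11 (2.25), Klf12 (2.09) and D330022H12Rik (2.08) the dimmest.

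On the lower side, Cyp4f18, Gbp2b and Kcnh6 differed by over 10-fold in spleen. Cyp4f18, an enzyme that inactivates leukotriene B4, had 7709 in WT and 120 in deltaDC spleen, and 1443 and 223 in thymus. Both deltaDC arrays lay below both WT arrays, with differences of -6.21 in spleen (spot SE 0.12) and -2.73 in thymus. Its 2 probes gave -5.84 and -6.21 but share a stretch of 29 bases and are no independent check. Gbp2b, an interferon-induced GTPase, had 476 and 34.9 in spleen and 124 and 14.4 in thymus, the last not above background. Its 2 probes share at most 6 bases and gave -3.97 and -3.76. The potassium channel gene Kcnh6 stood at -3.63 (279 on WT and 25.8 on deltaDC spleen, 71.0 and 49.9 in thymus), but at -2.08 with normexp and at -1.69 as the median over its probes. That median takes in its other probe, which was above background on no array (3.76 on WT and 5.18 on deltaDC spleen). The lowest others of their classes were the clock factor gene Arntl2 at -2.32, the dynein gene Dnah7a at -2.72 and Sh3bgrl2 at -1.94. Among genes under 50, Cyp2d34, Thsd1 and Tex38 stood at -2.26, -2.04 and -2.02.

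The lowest bright genes had in common the sequence of their probes. The 3 lowest of 1000 to 10000 (Shc4, Lzts3 and Cabp5) and the 3 lowest above 10000, Rhox8 and Dcc among them, each rest on a probe with a long run of purines, A or G, mostly repeats of GA or GAA. The 30 bases that show the run are given for 6 genes, 5′ to 3′ as in the deposited probe sequence, with the purine run in capitals and the probe's mm9 position from the files:
Shc4: gtcactacAGGAGAGAGAGAGAGAGAGAGA
Lzts3: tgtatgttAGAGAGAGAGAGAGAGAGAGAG
Cabp5: gcaaaatcAGAGAGAGAGAGAGAGAGAGAG
Dcaf12l2: GAGAGAGAGAGAGAGAGAGAGAGAtttcta
Rhox8: AGAAGAAGAAGAAGAAGAAGAAGAAGAAGA
Gcm1: GAAGAAGAAGAAGAAGAAGAAGAAGAAGAA
These probes lie at chr2:125453931-125453990, chr2:130459323-130459382, chr7:13993821-13993880, chrX:41719459-41719518, chrX:35231462-35231521 and chr7:123731567-123731626, on the minus strand except Cabp5. No mm9 annotation was used here. Whether each position lies in the gene the probe is named for, and in which exon or untranslated region, was therefore not checked. Values given under the names of genes on purine-run probes are those of the probes. They need not be those of the named genes. The whole run in the probe is 28 bases for Shc4, 27 for Lzts3, 29 for Cabp5, 24 for Dcaf12l2, 48 for Rhox8 and 60 for Gcm1.

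Probes of this kind were, by their medians, brightest on WT spleen. Shc4 had 8048 in WT and 1983 in deltaDC spleen, then 2885 in WT and 2120.4 in deltaDC thymus. Cabp5 had 11669, 3153, 4252 and 3048 in the same order, and Rhox8 20292, 8114, 8959.7 and 6232. In each case WT spleen was highest and the other arrays lay together. Over all probes above background on both splenic arrays, named or not, 73 held a purine run of at least 30 bases. All 73 had a difference below 0, with a median of -1.43, and 51 were past 2-fold, where 907 of all 25616 such probes (3.54%) were past 2-fold on the lower and 1096 (4.28%) on the higher side. For runs of 20 to 29 bases the median of 72 probes was -0.62, for 15 to 19 bases -0.21, for 12 to 14 bases -0.15, for 9 to 11 bases -0.10 and for shorter ones -0.07. Between the thymic arrays the median for runs of at least 30 bases was -0.32. Against WT spleen, which the comparisons share, WT thymus gave -1.21 and deltaDC thymus -1.56 over the same 73 probes. Runs of pyrimidines, C or T, of 20 to 29 bases had a median of 0.26 over 58 probes, and runs of CA or GT of at least 30 bases -0.37 over 30 probes in spleen and -0.27 in thymus.

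**Figure D2:**
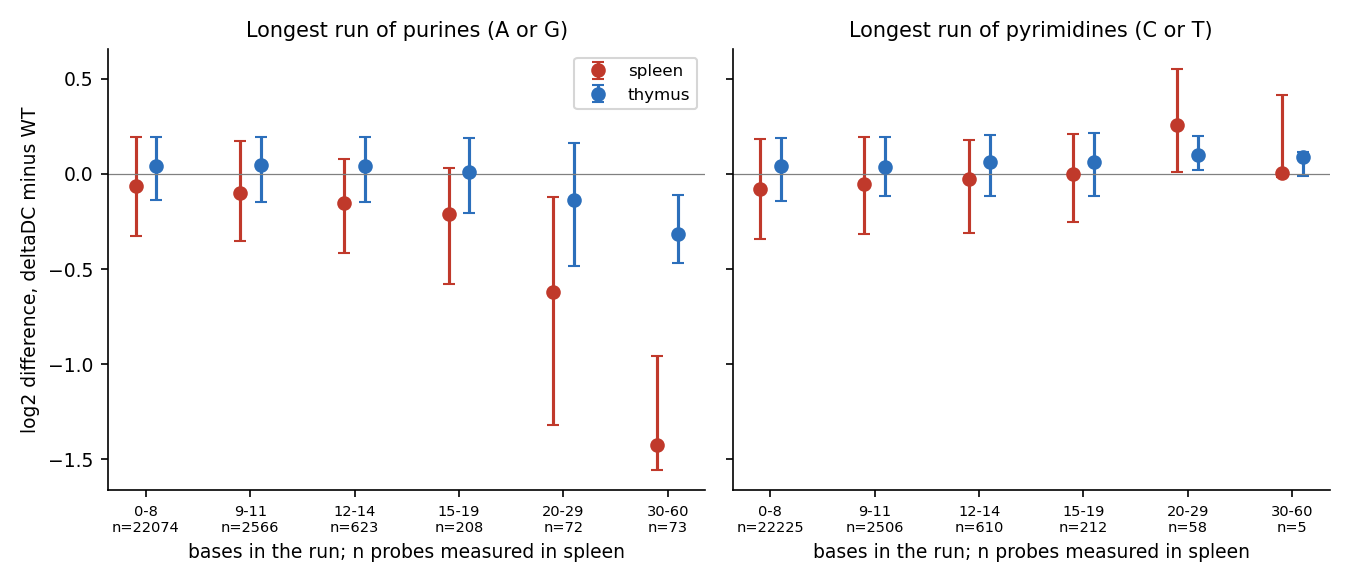
Median log2 difference, deltaDC minus WT, with the 25th to 75th percentile as bars, against the longest run of purines (left) or pyrimidines (right) in the probe, in spleen (red) and thymus (blue), with the number of probes measured in spleen under each bin. The splenic median goes from -0.07 for the shortest purine runs to -1.43 for the longest, where thymus has -0.32.

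Of the 41 genes with a mean signal of at least 1000 that were lower, 12 rest on a probe with a purine run of at least 20 bases, and 29 remain without them. Among the 12 are Shc4, Lzts3, Cabp5, Dcaf12l2, St6galnac1, Rhox8, Pigr, F10, Dcc, Gcm1 and Gab3. Of these genes, 4 have another probe that is free of the run and above background on both splenic arrays, and none of these probes was past 2-fold (Shc4 -0.74, Dcaf12l2 -0.33, Rhox8 0.13 and Gab3 0.79). St6galnac1's other probe had a signal of 4.37 on WT spleen, not above background, and 213 on deltaDC spleen. Ermn stood at -1.31 by a probe with a run of 25 bases and at 2.31 by its other probe. The same holds for a marker gene of plasmacytoid dendritic cells: the bright Siglech probe (61409 on WT and 45514 on deltaDC spleen) holds a run of 22 bases, and the other 2 Siglech probes were not above background on either splenic array. The cause of the higher signal of such probes on the WT spleen array was not tested, and the run length was chosen after the values were seen.

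**Figure D3:**
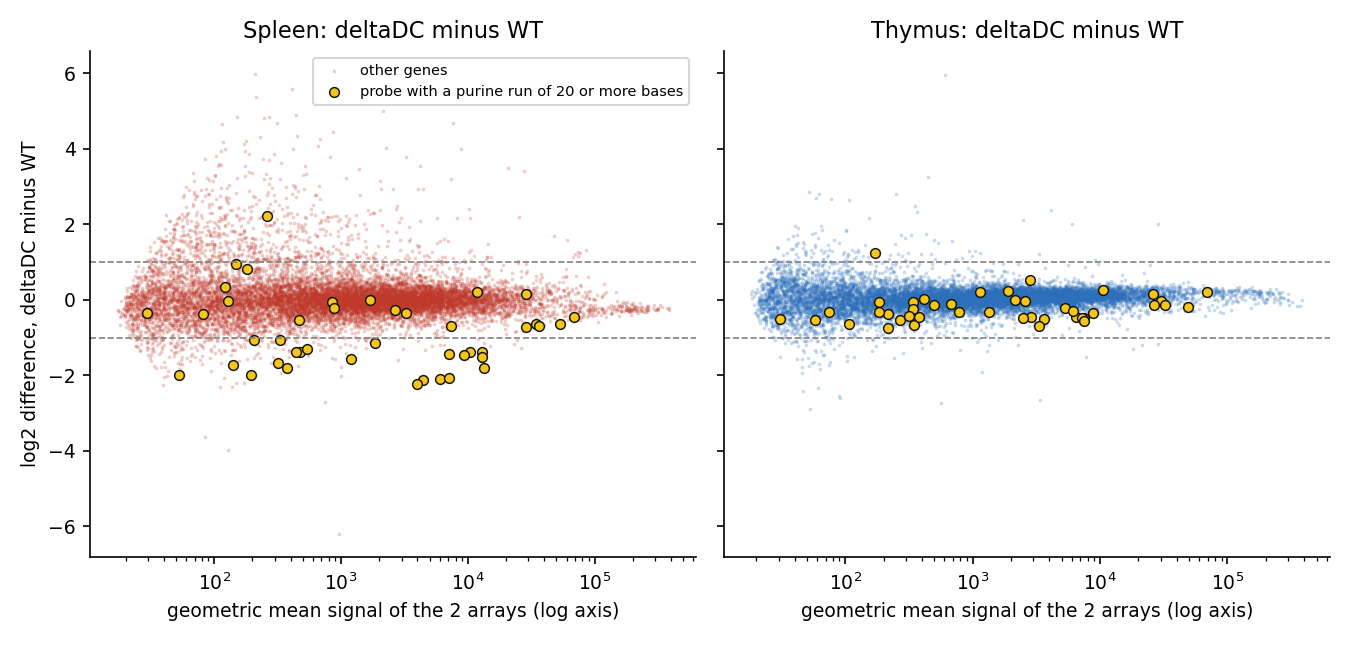
Each point is a gene above background on both arrays of an organ, with its geometric mean signal (log axis) against the log2 difference, deltaDC minus WT, in spleen (left) and thymus (right), dashed lines at 2-fold. Yellow points rest on a probe with a purine run of at least 20 bases: in spleen 22 of 43 lie below the lower line and 1 above the upper.

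The 29 other bright genes that were lower include several known from T cell biology. Il6ra, the interleukin-6 receptor chain, had 38279 in WT and 18012 in deltaDC spleen, against 15443 and 11219.9 in thymus. Itga6, an integrin chain, had 32261 and 16608 in spleen and 12844 and 12379 in thymus. WT spleen was the highest array for both. Bcl2, which protects from cell death, had 9241 and 4638 in spleen and 7586 and 6702 in thymus. Lrrc32, which encodes the latent TGF-beta anchor GARP of Tregs, had 32880.3 and 18021 in spleen and 23640.0 and 25432 in thymus. The differences were -1.29, -1.16, -1.20 and -1.07 with spot errors of 0.06 to 0.07. Bach2 (-1.02), Zbtb20 (-1.01), Capn3 (-1.59) and Gata1 (-1.30) were others, with Myc (2269 on WT and 1301 on deltaDC spleen) and Dapl1 (1885 and 540.3). Jun, an immediate early gene, was lower in both organs, at -1.22 and -1.16.

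Gene families were unequal in how many of their members differed. Names were assigned to 104 families by symbol, which hold 5985 of the named genes and 2978 of those measured. Of the 99 families with at least 5 measured members, 33 had a share of called members over 2 times the background of 8.42%, and 18 had none. By role, 23.1% of 247 measured surface receptor genes were called, 42 higher and 15 lower, and 21.5% of immune effector genes, 19 higher and 4 lower. Secreted proteins and enzymes followed with 16.8% of 244, chromatin genes with 16.3% of 160, cytoskeletal genes with 22 of 169 and channels and transporters with 12.2% of 353. Signalling genes (7.74% of 349) and transcription factor genes (6.71% of 492) were near or under the background, and core cell machinery had 1.83% of 875. Roles and families were not matched for signal, on which the share called depends. Over all genes it was 20.03% at signals of 50 to 200 and 2.60% above 10000.

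**Figure D4:**
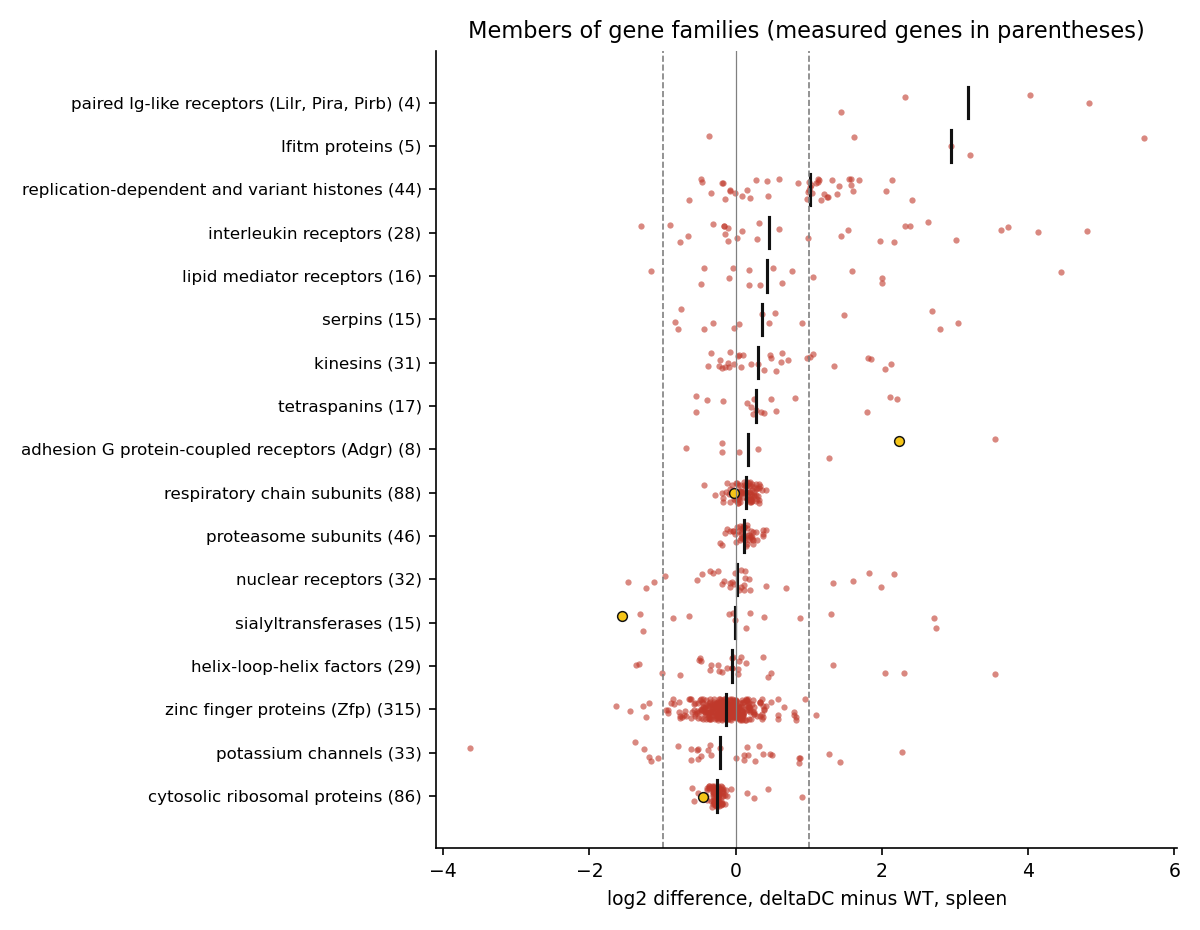
Log2 difference in spleen, deltaDC minus WT, of every measured member of 17 families (points), with the family median (black bar), dashed lines at 2-fold, and yellow points for genes on purine-run probes. Paired Ig-like receptors, Ifitm proteins and histones have medians of 3.17, 2.94 and 1.01, while proteasome, respiratory chain and cytosolic ribosomal genes have no point past a line.

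Among receptors, interleukin receptor genes had 12 of 28 measured members higher and 1 lower, with a median of 0.46, or 0.79 with the median over each gene's probes. Il17re and Il17rc, chains of receptors of the interleukin-17 family, had 43.7 and 38.5 on WT spleen and 1406 and 774 on deltaDC spleen. They differed by 4.81 and 4.13 (spot SE 0.23 each) and stood at 140.0 and 86.0 or lower in thymus. Il1r1, the interleukin-1 receptor, followed at 3.72 and Il18rap, a chain of the interleukin-18 receptor, at 3.63. The 4 measured paired Ig-like receptors were all higher, namely Lilr4b, Lilrb4a, Pirb (2.31) and Lilra6 (1.44). Of 16 receptors for lipid mediators, 5 were higher and 1 lower. Ltb4r1, the high-affinity receptor for leukotriene B4, had 173 on WT and 4321 on deltaDC spleen against 297 and 327 in thymus, and differed by 4.44 (spot SE 0.12). The cysteinyl leukotriene receptor genes Cysltr1 (117 and 538) and Cysltr2 (213 and 977) were also higher, S1pr3 was at 1.59, and the prostaglandin receptor gene Ptger3 was at -1.16. Of 17 tetraspanins, membrane organisers, 3 were higher and none lower: Tspan17 (2.21), Tspan2 (2.11) and Tspan4 (1.80). Adhesion G protein-coupled receptors had 3 of 8 higher, led by Adgrg5 at 3.55 (141 and 1899). The second, Adgrg3 at 2.23, rests on a purine-run probe and is the only gene on such a probe that was at least 2-fold higher.

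Some receptor families had members lower, or on both sides. Of 6 Cd300 receptors, 2 were lower, Cd300a at -1.03 and Cd300lf at -1.82, the latter on a purine-run probe. Cadherins and protocadherins had Cdh13 at -1.90, Cdh11 at -1.62 and Pcdhga9 at 1.25 among 8. Odorant and vomeronasal receptors had 40 of 1346 genes on the array above background on both splenic arrays, 3 of them lower and none higher, near the 6.97% lower among all genes with signals under 50. The gamma-delta, NK and myeloid marker sums given above were also higher on deltaDC spleen, but they are not separate from these families. The gamma-delta list holds Il1r1 and Il23r of the interleukin receptors, and the macrophage list holds Adgre1 of the adhesion receptors. A link between the sums and the receptor genes was not tested.

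Channels, transporters and signalling genes showed single members with large differences rather than whole families. Genes with potassium channel symbols had 3 of 33 higher, Kcnk1 (2.27), Kcnk6 (1.42) and Kcnip3 (1.28), and 6 lower, with Kcnh6 first and Kcnk3 at -1.37. The symbols also take in genes that are not channels, such as Kcnip3 and, among the lower ones, Kcnrg and Kcnq1ot1. Solute carriers, the largest transporter family, had 16 higher and 7 lower of 213 with a median of -0.01. Slc15a3, a lysosomal peptide and histidine transporter, led them at 3.86 (46.1 on WT and 769 on deltaDC spleen), with Slc24a3 at 2.44, Slc2a6 at 2.26 and Slc16a10 at 2.16. None of 30 ABC transporters passed 2-fold. Trpm6, a magnesium channel, was at 3.93, and the phospholipid flippases Atp8a2 and Atp8b4 at 3.39 and 3.36. Pde3b, which degrades cyclic AMP, had 332 and 3560.2 in spleen and 1465 and 2142 in thymus. Phospholipase C genes had Plcd1 at 2.98, Plcg2 at 2.31 and Plcb4 at 1.66. Of 52 Rab GTPases, 4 were higher, led by Rab26 at 3.06. None of 10 protein kinases C and D or 7 Traf adaptors were past 2-fold.

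Families of cell shape, the cell cycle and chromatin had members higher and almost none lower. Kinesins, motors of the mitotic spindle and of transport, had 7 of 31 higher and none lower, with Kif22 at 2.12, Kif4 at 2.04, Kif2c at 1.85 and Kif23 at 1.81. Myosins had 4 of 26 higher, led by Myo1f at 2.94 (1484 on WT and 13055 on deltaDC spleen). Intermediate filament genes had 4 of 18 higher, Krt81 (2.21), Krt18 (2.13), Lmna (1.87) and Vim (1.13), and tubulins 2 of 19, with Tubb6 at 2.76. Histone genes had 23 of 44 higher and none lower, with a median of 1.01 against 0.20 between the thymic arrays. H2ac4 had 4174 in WT and 25420 in deltaDC spleen, and 17745 and 21100.4 in thymus, so that WT spleen was the low array. H1f5 (513 and 2591 in spleen, 2006 and 1895 in thymus) and H3c7 (45.5 and 218, 207 and 254) were also lowest on WT spleen. Histone genes are near-identical copies, and their probes can bind transcripts of several. Outside the histones, 3 of 116 measured chromatin genes were higher, Smarcd3 (1.96), Prdm1 (1.82) and Uhrf1 (1.01), and none were lower.

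Secreted and carbohydrate-modifying enzymes held several of the larger differences. Of 15 serpins, 4 were higher: Serpina3f (3.04), Serpina3i (2.80), Serpinb1a (2.68) and Serpina3g (1.48). Of 24 metalloproteases, Adam8 had 823 and 13018 in spleen and 539.6 and 646 in thymus, and Mmp9 stood at 3.04. Cathepsin H (Ctsh) was at 2.78. Of 34 fucosyl-, galactosyl- and GlcNAc-transferases, 4 were higher and none lower. The fucosyltransferase gene Fut7 had 699 and 6155 in spleen against 1272 and 1176 in thymus, a difference of 2.94, and Gcnt1 (2.50) and B3galt5 (1.83) followed. Sialyltransferases were split, with 3 of 15 higher, St3gal6 (2.71) among them, and 3 lower, St6galnac1 on its purine-run probe among the latter. Cytochromes P450 had 2 of 23 higher and 3 lower.

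Transcription factor families were unequal in how many members differed. The 315 measured zinc finger genes named Zfp had 1 member higher, Zfp768 at 1.09, and 5 lower, Zfp69 first at -1.64, with a median of -0.13. None of 17 Ets factors, 9 interferon regulatory factors or 7 Stat factors passed 2-fold. Other families had a larger share called than the background. Nuclear receptors had 5 of 32 higher, among them Rora (1.98), Pparg (1.82), Nr1d1 (1.61) and Nr2f6 (1.33), and 3 lower, Esr1 (-1.47), Vdr (-1.22) and Thrb (-1.11). Helix-loop-helix factors had 4 of 29 higher and 3 lower. Id2, which blocks helix-loop-helix factors and marks effector and innate lymphocytes, had 1142 in WT and 15371 in deltaDC spleen, and 1989 and 1936 in thymus, with deltaDC spleen far above the rest. The AP-1, Batf, Maf and Cebp group had 5 of 26 higher, Batf3 (2.20), Fosl2 (1.62) and Batf (1.14) among them, and Jun lower.

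Immune effector families were led by Ifitm proteins, with 4 of 5 higher: Ifitm1, Ifitm2 (3.20), Ifitm10 (2.94) and Ifitm3 (1.62). Their median of 2.94 was 1.65 with normexp and 1.62 over probes. The interferon-inducible GTPases, 20 measured, had Gbp2b alone past 2-fold, on the lower side, and a median of -0.09. Class II MHC genes H2-Aa (3.01), H2-Eb1 (2.50) and H2-Ab1 (2.40) were higher, as were the complement genes C1qb (1.23), C1qa (1.21) and C1qc (1.07), which macrophages make. WT spleen was the low array for these class II genes. H2-Ab1 had 1110 in WT and 6735 in deltaDC spleen, and 7815 and 9038 in thymus. H2-Aa had 143 and 1324 in spleen and 1027 and 1088 in thymus. Metallothioneins Mt1 and Mt2 stood at 2.40 and 1.30.

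Core machinery was nearly flat between the splenic arrays. None of 86 cytosolic ribosomal, 78 mitochondrial ribosomal, 46 proteasome, 88 respiratory chain, 62 translation factor, 67 splicing or 59 RNA polymerase and Mediator genes passed 2-fold. Their medians ran from -0.26 for cytosolic ribosomal proteins to 0.14 for the respiratory chain. The cytosolic ribosomal median was 0.20 between the thymic arrays. These families are bright, with median signals from 1562 for RNA polymerase and Mediator genes to 142424 for cytosolic ribosomal genes. Among all genes, 2.94% were called at signals of 1000 to 10000 and 2.60% above. Over all core families, 12 of 875 measured genes were higher and 4 lower. Replication genes had Cdc45 (1.16), Mcm10 (1.11) and Gins2 (1.05) of 41 higher, a share near that of all genes, and Ube2c, a ubiquitin-conjugating enzyme of mitosis, stood at 2.28. The rest lay in the F-box, Trim, chaperone, vacuolar ATPase, ubiquitin-conjugating and aminoacyl-tRNA synthetase families.

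Some of the genes that were higher lay next to each other in the genome. A run was counted where at least 3 called genes of the same direction followed each other with at most 1 other measured gene between neighbours and at most 500 kb from gene to gene. There were 21 such runs of higher genes with 78 of 798 placed genes (9.77%), and 2 of lower genes with 6 of 251 (2.39%). The 2 directions cannot be compared by these shares, because runs become more frequent as more genes are called. Of all measured genes, 6.41% were higher and 2.01% lower. How many runs such shares alone would give was not tested. On chr1:40133079-40605788 (mm9, probe positions) the run held Il1r2, Il1r1, Il1rl1, Il18r1 and Il18rap, receptors of the interleukin-1 family, with Gm16894, at 1.40 to 3.72. The NK gene complex on chromosome 6 gave 2 runs, Klrb1a, Klrb1c, Klrb1b and Klrb1f and then Klrd1, Klrc1 and Klra8, at 1.88 to 5.98. Histone genes gave 3 runs on chromosome 13 with 15 called genes and 1 on chromosome 3 with 5. Other runs were those of Serpina3 on chromosome 12, of Ifitm on chromosome 7, of class II MHC on chromosome 17 and of C1q on chromosome 4. Probes within the NK and interleukin-1 receptor runs shared at most 8 bases. Those of the histone runs shared up to 34, so that their members are not separate measurements. Among autosomes, the share called ran from 5.84% of 445 genes on chromosome 19 to 11.3% of 469 on chromosome 13, and was 6.02% of 399 on X.

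**Figure D5:**
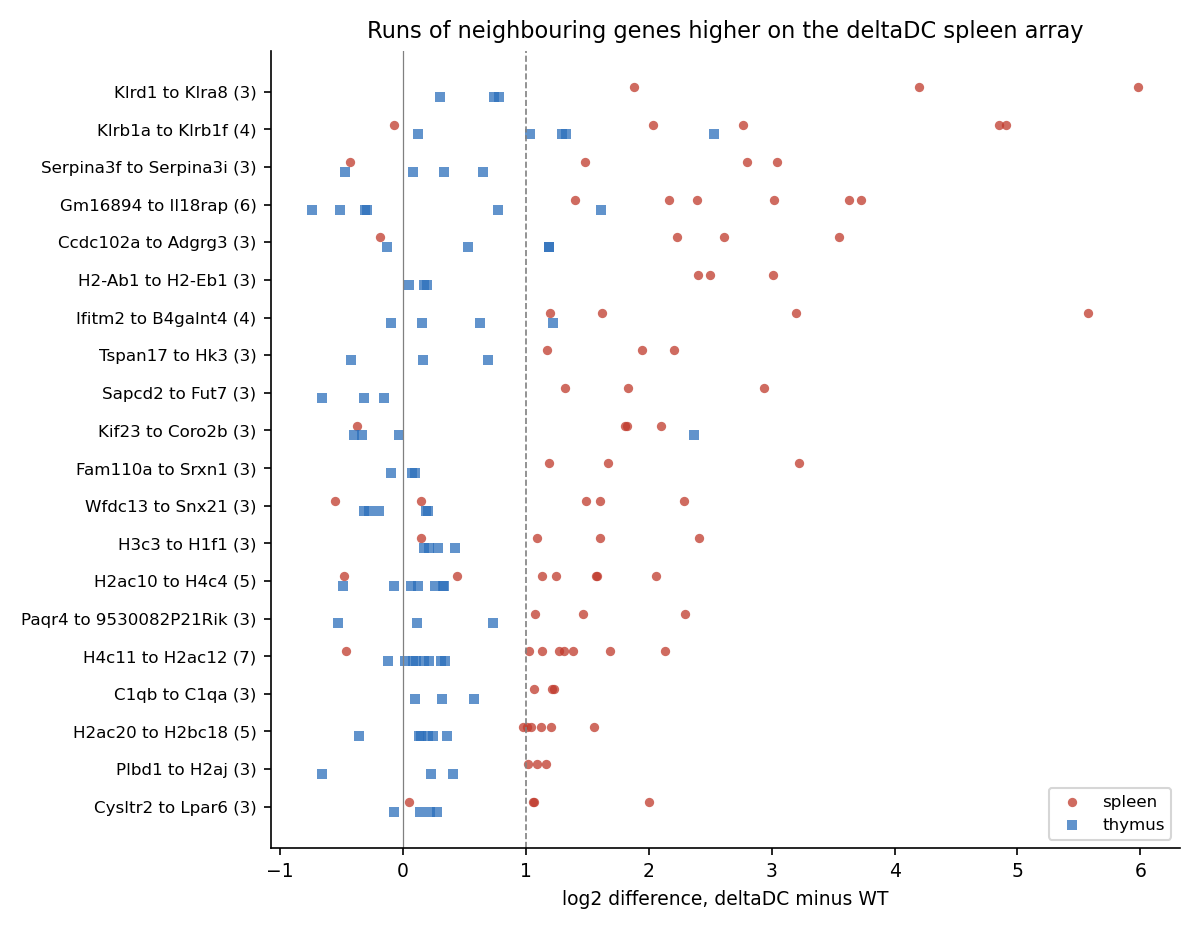
Log2 difference, deltaDC minus WT, of the measured genes in 20 of the 21 runs of neighbouring genes that were higher on the deltaDC spleen array (red, spleen; blue squares, the same genes in thymus, whether or not above background there), named by first and last called gene with the number of called genes. By construction the called genes lie beyond the dashed 2-fold line in spleen; the runs with the highest medians, at 4.20 and 3.81, are those of the NK gene complex.

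The promoters of called genes had fewer CpG dinucleotides than those of other measured genes. RefSeq promoters (GRCm38.p6, 250 bases before to 50 after the first listed start) were matched by symbol for 9941 of the 12531 genes. The median number of CpG in the 300 bases was 15 for 623 higher genes, 9 for 185 lower genes and 21 for 9133 others, and 7 over all 27025 promoters. To show what the counts stand for, the 250 bases before the start are given for Cxcr6, the highest gene of 1000 to 10000 with under 6 CpG, and Smim11, the gene nearest to 0 in that class among those with the median count, with each CG in capitals:
Cxcr6: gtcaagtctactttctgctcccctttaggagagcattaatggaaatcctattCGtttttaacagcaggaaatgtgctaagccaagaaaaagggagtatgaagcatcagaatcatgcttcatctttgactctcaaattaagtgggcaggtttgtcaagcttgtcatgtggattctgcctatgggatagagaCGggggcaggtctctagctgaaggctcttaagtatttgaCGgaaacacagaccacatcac
Smim11: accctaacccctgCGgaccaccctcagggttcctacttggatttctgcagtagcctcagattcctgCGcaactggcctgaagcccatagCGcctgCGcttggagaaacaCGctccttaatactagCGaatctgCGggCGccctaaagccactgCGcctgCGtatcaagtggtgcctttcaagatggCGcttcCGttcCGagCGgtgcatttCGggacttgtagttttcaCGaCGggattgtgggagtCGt
They lie at chr9:123806227-123806476 and chr16:92301053-92301302, both on the plus strand of GRCm38.p6. Cxcr6 has 3 CG in this stretch and differed by 4.69, and Smim11 has 18 and had signals of 8298 on WT and 9513 on deltaDC spleen, a scaled difference near 0.

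Because CpG-poor genes tend to be dim, the counts were also read within signal classes. Of measured genes with under 6 CpG, 21.4% were called at signals of 200 to 1000 against 8.50% of the others, 10.73% against 2.19% at 1000 to 10000 and 6.78% against 1.73% above. At signals under 50 the shares were 13.4% for both, and from 50 to 200 they were 19.9% and 19.1%. The gap was thus seen in the 3 brighter classes and not in the 2 dimmer ones. Each of 12 short motifs was searched on both strands of the 300 bases, and none of them holds another. The AP-1 motif was TGANTCA, the ETS motif CCGGAAGT and the CRE motif TGACGTCA. The RUNX motif was searched as TGTGGT, the forkhead motif as TGTTTAC, the E-box as CAGCTG and the CHR element as TTTGAA. The Sp1 motif was searched as GGGCGG, the TATA box as TATAAA, the CCAAT box by its own letters, and the others were the NRF1 and NF-kB motifs. The AP-1 motif was in 8.51% of higher, 7.03% of lower and 4.59% of other measured promoters and in 7.93% of all promoters. The ETS motif was in 2.41% of higher and 2.70% of lower promoters and in 822 of 9133 others, and in 1081 of all 27025 promoters. Its letters hold a CG, as do those of the CRE, NRF1 and Sp1 motifs. In higher, lower and other promoters, CRE had 2.09%, 1.08% and 3.47% and NRF1 0.64%, 0.54% and 2.20%. Sp1 had 57.14%, 44.86% and 62.77%. Motifs were not counted within CpG or signal classes, so the part of CpG content in these shares was not tested. The RUNX motif was in 17.98% of higher, 11.35% of lower and 12.67% of other promoters, and NF-kB in 3.21%, 2.16% and 1.58%. In the same order, CHR had 17.2%, 17.3% and 11.86%, TATA 8.35%, 14.05% and 7.12%, and the E-box 16.53%, 21.62% and 14.62%. Forkhead hardly varied, at 2.41%, 2.70% and 2.53%. CCAAT hardly varied, at 39.5%, 37.8% and 38.9% with 37.9% of all.

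Probes outside protein-coding genes leaned the other way. Of 16246 probes for long non-coding RNAs known by position alone, 4927 were above background on both splenic arrays. Of these, 376 were lower (7.63%) and 78 higher (1.58%), and the median was -0.25. Unnamed probes had 56 higher (1.70%) and 171 lower (5.18%) of 3302 and a median of -0.19, and named non-coding genes had 24 higher (3.0%) and 31 lower (3.88%) of 800 and a median of -0.17. Protein-coding probes had 938 higher (5.66%) and 329 lower (1.98%) of 16587 and a median of -0.01. For long non-coding probes the median was -0.28 at signals under 50, -0.24, -0.26 and -0.18 in the next 3 classes and 0.05 over the 49 brightest, and -0.02 between the thymic arrays. Over the 4394 such probes above background on all 4 arrays, the deltaDC spleen, WT thymus and deltaDC thymus arrays stood at -0.24, -0.28 and -0.30 against WT spleen, which the comparisons share.

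Other probes of the same genes gave a measure of how well a call held. For 3836 genes with more than 1 probe above background on both splenic arrays, the difference of an additional probe deviated from that of the gene's brightest probe with an SD of 0.27. Of 151 additional probes of 131 higher genes, 93.4% were also above 0 and 72.2% were past 2-fold. Of 58 additional probes of 48 lower genes, 86.2% were below 0 and 44.8% past 2-fold, and 24 of 48 without purine-run genes. A single gene, Ermn, had probes past 2-fold in opposite directions among these.

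Genes above background on a single splenic array have only a bound, the bright signal against the higher of their own dim signal and the lowest detected signal of the other array. There were 868 such genes on the deltaDC side, of which 261 reached a bound of at least 2-fold, and 327 on the WT side, of which 133 did. Among neutrophil genes, S100a9 was at least 332-fold higher, from a signal of 3.39 on WT spleen, S100a8 at least 76.2-fold, from 3.64, and Mpo and Ltf at least 27.5-fold and 24.9-fold. They were followed by AA467197, Hp, Chil3 and Pcsk1. On the WT side, Cyp26b1, which degrades retinoic acid, was at least 19.4-fold lower on deltaDC spleen (256 and 14.3) and the homeobox gene Rhox2h at least 17.2-fold, with 4932416K20Rik and Kcnd3 next. Of the 868 genes, 20 had a deltaDC signal over 200, and of the 327, 2 had such a WT signal.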

How the data were processed

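The arrays were read by Agilent Feature Extraction 10.7.3.1, per the file headers, which gives each spot's fluorescence intensity after background subtraction and detrending within an array, with flags as other columns in the deposited files. The authors also deposited a matrix of log2 values, background-subtracted and quantile-normalised per its header, in which the 4 column medians lie between 4.10 and 4.15. Its columns each correlated best with the array of the same label (Pearson r at least 0.9966 across genes), so direction follows the scanner files, while the base of the logarithm is that of the header, and the tool and any offset are not given in the sources used here.

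Of 59305 non-control spots (55681 probes), outlier spots (110 on WT and 131 on deltaDC spleen) were dropped. Log2 signals were set against each array's 75th percentile, repeated spots averaged, and the brightest probe taken per gene. RefSeq accessions named 27598 probes and current symbols 3493, while 24590 stayed unnamed. With 1 array a group, no test was made. The spot error came from 399 probes spotted 10 times, and the counting was tested on simulated data. Between 48.7% and 50.7% of spots were well above background. The number of arrays limits precision.

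Genes named are the 3 highest and 3 lowest of each signal class, up to 4 members per family past 2-fold, genes whose probes disagree and members of neighbour runs, beside the lower genes of at least 1000, which were chosen after their values were seen. Some genes and 1 run are not reported here. The families, members and lists were chosen with earlier results of these data known. Alternatives were normexp background correction (offset 50), array median scaling, quantile normalisation, loess, the deposited matrix, other filters, the median over probes and leaving out purine-run probes. Tools were Python 3.11.15, pandas 2.3.3, numpy 2.4.6, statsmodels 0.14.6, R 4.3.3 and limma 3.58.1.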

Additional observations from a re-analysis of the deposited data

Results flagged for a closer look

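In 3 named genes the genotype difference was at least 2-fold in both organs and in opposite directions, with 1 array a group and without a test of the difference between organs. Fcmr, the IgM receptor that B cells and some T cells carry, stood at -1.26 in spleen (383 on WT and 184 on deltaDC) and at 1.25 in thymus (198 and 483). Gpr15, a homing receptor of T cells, stood at 1.06 in spleen (279 and 668) and at -1.01 in thymus (553 and 283). Ube2d1, a ubiquitin-conjugating enzyme, stood at -1.02 in spleen (186 and 106) and at 1.33 in thymus (79.0 and 203). The summed B cell signal, which was 1768 and 1927 in spleen, was 3458 and 6029 in thymus, and its part in the Fcmr values was not tested.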

How the results depend on the processing

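Higher genes numbered 803 and lower genes 252, or 6.41% and 2.01% of those measured. Under normexp background correction they were 484 (3.86%) and 84 (0.67%), of which 481 and 84 were calls of the main setting. Without a filter on dim genes they were 1746 (7.82%) and 1359 (6.09%) of 22317 genes. With signals of at least 100 on both arrays 398 of 10168 genes (3.91%) were higher and 1.05% lower. Under the other 8 alternatives the counts stayed between 771 and 856 and between 215 and 275. With normexp and its offset, the share of genes past 2-fold went from 13.3% to 0.10% at signals under 50. At 50 to 200 it went from 20.03% to 7.74%. The offset by itself shrinks differences between dim signals, and normexp was not run without it. The brighter classes moved by less than 1.5 times. Of all calls, 76.1% were higher in the main setting, 85.2% under normexp and 56.2% without the dim filter. Leaving out genes on probes with purine runs of at least 20 bases, chosen after seeing the data, gave 802 higher and 230 lower. The median of long non-coding probes ran from -0.25 to -0.18 and that of purine-run probes from -1.12 to -0.90 over 6 alternatives each. Among values past 2-fold in the main setting, sign changes arose only when the median over a gene's probes, above background or not, was taken. Among 285 named genes, 3 changed sign in this way: Ermn (0.50), St6galnac1 (1.93) and Cacna1h (0.96). Their values moved by more than the SD between probes of a gene in 179 genes under normexp, 54 with the median over probes and 15 in the deposited matrix, and 105, 33 and 11 were then under 2-fold, against 6 to 8 under the other 3 alternatives. Of 99 family medians, 15 moved without the dim filter, 2 under normexp and 2 over probes, and none past 2-fold changed sign. Sign changes of smaller medians were not counted, and some occurred. The median of Fc receptor genes, for example, was 0.05 in the main setting and -0.07 with normexp. No paired analysis was possible because each group has 1 array, and for the same reason no array could be left out. Signal near background limits what dim genes can show.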
